A study of Mus musculus with 36 samples.

Results

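The 10 genes described here encode RNA-binding proteins that set splicing and mRNA stability as neurons form: Elavl2, Elavl3 and Elavl4, Nova1 and Nova2, Rbfox1, Rbfox2 and Rbfox3, and the polypyrimidine tract binding proteins Ptbp1 and Ptbp2. They were chosen by name as the neuronal splicing regulators together with the progenitor repressor Ptbp1 and its neuronal relative, and all 10 were found among the 46603 genes of both count tables. mRNA sequencing was performed on mouse embryonic forebrain of an allelic series of Chd8, which encodes a chromatin remodeller associated with autism. All embryos were C57Bl/6J. At embryonic day (E) 12.5, the cortex of single embryos was profiled in 4 genotypes with 3 libraries each: Chd8 +/+ (wildtype), Chd8 +/- (heterozygous, 1 null allele made by germline removal of exon 3, after which the Cre transgene was bred out), Chd8 neo/neo (mild hypomorph, 2 alleles carrying a neo cassette after exon 3) and Chd8 neo/- (severe hypomorph, 1 neo and 1 null allele). At E10.5, telencephalic tissue was compared between 3 Ctrl libraries, labelled as a combination of Chd8 f/f and f/+ embryos without stating whether they carried Cre, and 3 cKO libraries of sox1-Cre; Chd8 f/f embryos, in which Cre acts throughout the early neuroectoderm. RNA of 2 embryos was pooled for each E10.5 library. The presence of Cre and the loss of Chd8 can therefore not be told apart at E10.5.

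Neural progenitors and neurons splice many transcripts differently. Ptbp1 is abundant in progenitors and represses neuronal exons, among them an exon of Ptbp2 whose skipping leads to decay of the Ptbp2 transcript. As neurons differentiate Ptbp1 falls, Ptbp2 rises, and Elavl, Nova and Rbfox proteins take over, binding AU-rich, YCAY and GCAUG elements respectively. Elavl proteins also stabilise mRNAs, and Rbfox3 is the antigen known as NeuN, a marker of mature neurons.

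Total counts per library were between 38774591 and 61051667 in the 12 E12.5 libraries and between 49632937 and 68488879 in the 6 E10.5 libraries. Values are given as CPM, the counts of a gene per 1000000 counts of its library, scaled within each stage by the trimmed mean of M-values (TMM), and as mean ± SD of 3 libraries. Where levels of different genes are compared, CPM were divided by the exon length in kilobases. Genes were called changed at an adjusted p under 0.05 in edgeR's quasi-likelihood test, fitted over 18810 genes in the E12.5 table and 18435 in the E10.5 one. All 10 genes passed the filter on low counts at both stages. Chd8 itself was 237 ± 2.41 CPM in wildtype, 167 ± 3.04 in heterozygous, 209 ± 5.64 in neo/neo and 149 ± 8.38 in neo/- embryos, and all 3 mutant genotypes were called lower than wildtype. The neo/neo call was kept in 17 of 22 alternatives and lost without wildtype replicate 2 or 3 or neo/neo replicate 2. At E10.5 Chd8 was 171 ± 12 CPM in Ctrl and 121 ± 4.78 in cKO libraries. Counts summed over the gene include exons outside the deleted or trapped part and check the labels only in part. Dorsal telencephalon markers (4 genes) summed to between 716 and 1002 CPM at E12.5 and 528 and 633 at E10.5, and ventral ones (9 genes) to between 675 and 898 and between 22.1 and 53.2. Xist and Y-linked counts showed 4 female E12.5 embryos, wildtype replicate 3, heterozygous replicate 1 and neo/neo replicates 1 and 2. At E10.5, Ctrl replicates 1 and 3 had near-background Y-linked counts, Ctrl replicate 2 had near-background Xist, and the 3 cKO pools held both.

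The sequences upstream of 3 of these genes are shown because Elavl4 and Nova2 gave calls in hypomorphs, while Ptbp2, the neuronal PTB gene, gave none. They are the 250 bases before 1 annotated start of each gene (RefSeq, GRCm38.p6), written 5′ to 3′ on the gene's strand, with GC boxes (GGGCGG, or CCGCCC on the other strand) in capitals. Of the 10 genes, 9 had such a window.
Elavl4: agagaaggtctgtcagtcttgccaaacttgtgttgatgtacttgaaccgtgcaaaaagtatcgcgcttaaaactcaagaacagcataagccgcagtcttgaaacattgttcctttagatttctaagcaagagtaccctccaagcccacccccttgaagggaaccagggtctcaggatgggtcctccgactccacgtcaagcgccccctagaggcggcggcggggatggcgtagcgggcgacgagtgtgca
Nova2: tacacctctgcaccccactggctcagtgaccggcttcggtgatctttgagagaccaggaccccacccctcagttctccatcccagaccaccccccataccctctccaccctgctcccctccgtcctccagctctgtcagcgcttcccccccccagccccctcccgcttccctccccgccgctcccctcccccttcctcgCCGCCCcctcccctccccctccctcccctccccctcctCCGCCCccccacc
Ptbp2: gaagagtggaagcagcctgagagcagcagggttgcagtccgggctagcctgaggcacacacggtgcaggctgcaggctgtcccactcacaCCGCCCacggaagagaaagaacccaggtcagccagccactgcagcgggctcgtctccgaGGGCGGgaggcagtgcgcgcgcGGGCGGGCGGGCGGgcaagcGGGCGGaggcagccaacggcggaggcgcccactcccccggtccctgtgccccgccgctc
The Elavl4 window lies at chr4:110351912-110352161 on the minus strand and has no GC box and 53.6% GC. The Nova2 window, at chr7:18925638-18925887 on the plus strand, has 2 GC boxes and 71.2% GC in long runs of pyrimidines. The Ptbp2 window, at chr3:119783389-119783638 on the minus strand, has 6 GC boxes, 3 of them overlapping, and 72.4% GC. It lies inside the gene span given for Ptbp2 among its values, downstream of the 5′ end of that span. The Elavl4 window is the one of 4 listed for that gene that starts nearest the 5′ end of its span. Over all 32851 promoter windows of this length, 32.7% held a GC box and the median GC content was 52.4%. Elavl3 was the other gene with a GC box, with 1, and the remaining 6 windows had none.

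In wildtype E12.5 cortex, Elavl3 and Ptbp1 were the most abundant of the 10, at 72.2 ± 1.59 and 71.8 ± 2.62 CPM per kilobase. The libraries of these 2 genes overlapped, so their order is not resolved. Ptbp2 (58.4 ± 2.4) and Rbfox2 (53.6 ± 2.29) followed and also overlapped each other. Elavl4 was at 36 ± 2.42, Elavl2 at 20.6 ± 1.34, Nova2 at 16.6 ± 1.3 and Nova1 at 12.1 ± 0.368 CPM per kilobase, each separate from its neighbours in every library. Rbfox1 (5.47 ± 0.985) and Rbfox3 (5.14 ± 0.293) were lowest and overlapped. Ptbp1 ranked first in both hypomorphs, where it was 74.3 ± 2.72 in neo/neo and 71.7 ± 1.84 in neo/- embryos, against 66.7 ± 6.16 and 64.4 ± 2.12 for Elavl3. In neo/- embryos every Ptbp1 library lay above every Elavl3 library, which was not the case in the other E12.5 genotypes.

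Of the 10 genes, 3 were lower in neo/neo than in wildtype cortex and 2 in neo/-, and none was higher. Rbfox2 was lower in both hypomorphs, Elavl2 and Elavl4 in neo/neo, and Nova2 in neo/-. The decreases were between 11.8% and 21.9%. Across all genes tested, 4.45% were called lower and 3.71% higher in neo/neo, and 5.99% lower and 5.48% higher in neo/-. The median log2 fold change of the 10 was -0.21 in neo/neo and -0.16 in neo/-, against 0.0053 and 0.0011 over all genes tested. Both hypomorphs were set against the same 3 wildtype libraries. In heterozygous cortex no gene of the 10 was called, where 0.0159% of all genes were called higher and 0.00532% lower.

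**Figure D1:**
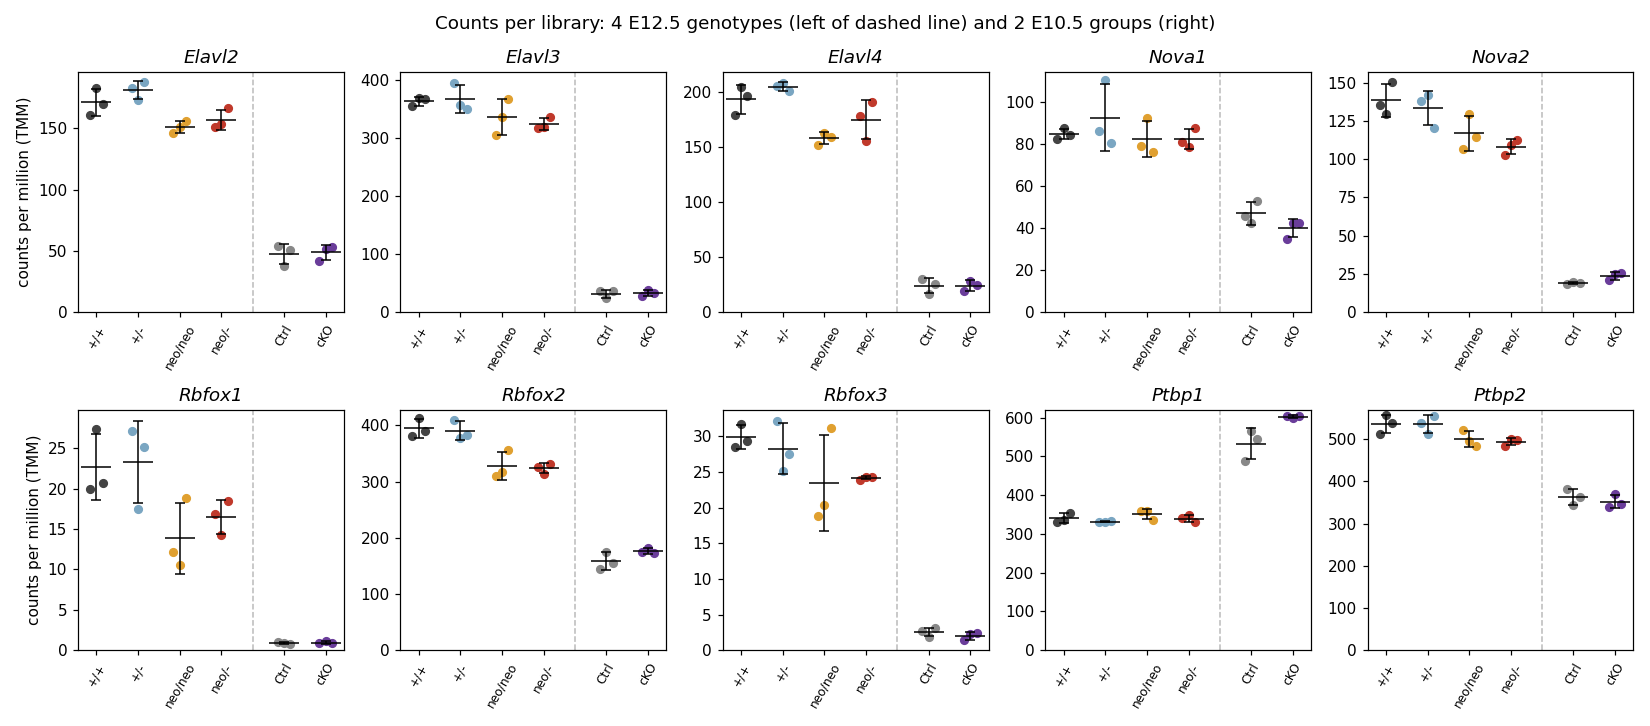
CPM in every library (points) for the 10 genes, with the mean and SD of each group of 3 (bars), for 4 genotypes at E12.5 and 2 groups at E10.5. Rbfox2 libraries of both hypomorphs sit between 310 and 357, below all wildtype and heterozygous libraries (378 to 414), while Ptbp1 stays between 330 and 360 in all 12 E12.5 libraries.

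Rbfox2 (chr15:77078990-77307053, GRCm38), the broadly expressed member of the Rbfox family, was measured at 381, 414 and 390 CPM in the wildtype libraries and 410, 378 and 382 in the heterozygous ones. The neo/neo libraries held 310, 317 and 357 CPM and the neo/- libraries 327, 314 and 331. No hypomorph library reached the lowest wildtype or heterozygous library. Rbfox2 fell by 0.27 ± 0.057 on the log2 scale (SE, adjusted p = 0.013) in neo/neo and by 0.29 ± 0.057 (adjusted p = 0.0058) in neo/-. The call in neo/- held under all 22 alternative settings or left-out libraries, with adjusted p between 7.97e-05 and 0.0362. The call in neo/neo was lost without wildtype replicate 2, neo/neo replicate 1 or neo/neo replicate 2, with only the 2 groups in the fit, and with trends of GC content and exon length removed. Its highest adjusted p over these was 0.0652.

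Rbfox1 (chr16:6809222-7412479), a neuron- and muscle-enriched paralog, had 19.9, 27.4 and 20.8 CPM in wildtype and 27.1, 17.5 and 25.2 in heterozygous libraries. Its neo/neo libraries were at 12.2, 10.5 and 18.8 CPM and its neo/- libraries at 16.8, 14.3 and 18.4. All hypomorph libraries lay below the wildtype ones, with log2 fold changes of -0.71 ± 0.24 (adjusted p = 0.108) and -0.46 ± 0.24 (adjusted p = 0.271), which did not pass the test. Rbfox3 (chr11:118489762-118911597) was at 28.5, 31.8 and 29.4 CPM in wildtype cortex. It was at 18.9, 20.4 and 31.1 CPM in neo/neo and between 23.9 and 24.3 CPM in neo/- embryos. The third neo/neo library thus lay within the wildtype range while the other two were below it. The log2 fold changes of Rbfox3 were -0.35 ± 0.16 (adjusted p = 0.22) and -0.31 ± 0.16 (adjusted p = 0.273).

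Elavl4 (chr4:110203722-110351909), also known as HuD and restricted to neurons, had 179, 205 and 197 CPM in wildtype and 205, 209 and 201 in heterozygous cortex. The neo/neo libraries held 152, 163 and 159 CPM, all below every wildtype library, and Elavl4 fell by 0.29 ± 0.065 on the log2 scale (adjusted p = 0.0173). This call was lost without wildtype replicate 2 or 3 or neo/neo replicate 1, and with GC and length trends removed, where adjusted p reached 0.0803 at most. In neo/- embryos the libraries were at 178, 156 and 191 CPM and overlapped wildtype. The log2 fold change there was -0.15 ± 0.065 (adjusted p = 0.168).

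Elavl2 (chr4:91250763-91400785), or HuB, which appears early in neuronal differentiation, was at 161, 183 and 170 CPM in wildtype and 147, 151 and 156 CPM in neo/neo cortex. The groups did not overlap, and the decrease of 0.18 ± 0.053 on the log2 scale was just past the threshold (adjusted p = 0.0488). It was the least stable call of the set, kept in 8 of 22 alternatives with adjusted p up to 0.407. Without 1 library, it was lost for wildtype replicates 2 and 3, heterozygous replicates 1 and 3, neo/- replicates 1 and 2, and neo/neo replicates 1 and 2. The neo/- libraries held 151, 153 and 166 CPM, with a log2 fold change of -0.13 ± 0.053 (adjusted p = 0.136). Elavl3 (chr9:22015005-22052023), or HuC, a widely used early neuronal marker, had 354, 369 and 366 CPM in wildtype and 304, 335 and 366 CPM in neo/neo cortex. It was at 317, 319 and 336 CPM in neo/- embryos, below all wildtype libraries. The log2 fold changes of Elavl3 were -0.11 ± 0.063 (adjusted p = 0.282) and -0.16 ± 0.063 (adjusted p = 0.111).

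Nova2 (chr7:18925888-18965319), the Nova protein that predominates in neocortex, was at 136, 129 and 151 CPM in wildtype and 138, 142 and 121 CPM in heterozygous libraries. The neo/- libraries held 103, 109 and 113 CPM, below all of these, and Nova2 fell by 0.36 ± 0.081 on the log2 scale (adjusted p = 0.0153). Without wildtype replicate 3, neo/- replicate 1 or neo/- replicate 2 the call was lost, with a highest adjusted p of 0.0605. It was kept in the other 19 of 22 alternatives. In neo/neo cortex Nova2 was at 107, 130 and 114 CPM, with the second library at the level of the lowest wildtype one, and a log2 fold change of -0.25 ± 0.08 (adjusted p = 0.0808). In the annotation that the E12.5 reads were counted against, 2652 exonic bases of Nova2, 31.7% of its exon length, are shared with Gm26821. That gene had 0 counts in all 18 libraries. The header of the E12.5 counts names no strand option, and Nova2 counts and levels per kilobase may be understated. Nova1 (chr12:46694517-46818775), the family member prominent in ventral brain and spinal cord, was between 82.4 and 87.5 CPM in wildtype, 76.3 and 92.3 in neo/neo and 78.5 and 87.8 in neo/-. Its log2 fold changes were -0.04 ± 0.11 in both hypomorphs (adjusted p = 0.869 and 0.868).

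Ptbp1 (chr10:79854427-79864771) was at 330, 337 and 354 CPM in wildtype, 359, 360 and 337 in neo/neo and 340, 348 and 331 in neo/- cortex. The groups overlapped. The 95% interval of its log2 fold change ran from -0.04 to 0.13 in neo/neo (adjusted p = 0.534) and from -0.09 to 0.08 in neo/- (adjusted p = 0.973). Of its exonic bases, 16.3% are shared with 3 other annotated genes. Ptbp2 (chr3:119718742-119784466) was at 513, 557 and 538 CPM in wildtype, 522, 497 and 484 in neo/neo and 485, 500 and 498 in neo/-. Its log2 fold changes were -0.10 ± 0.048 (adjusted p = 0.222) and -0.12 ± 0.048 (adjusted p = 0.131). Every neo/- library was below every wildtype library, but the difference did not pass the test.

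**Figure D2:**
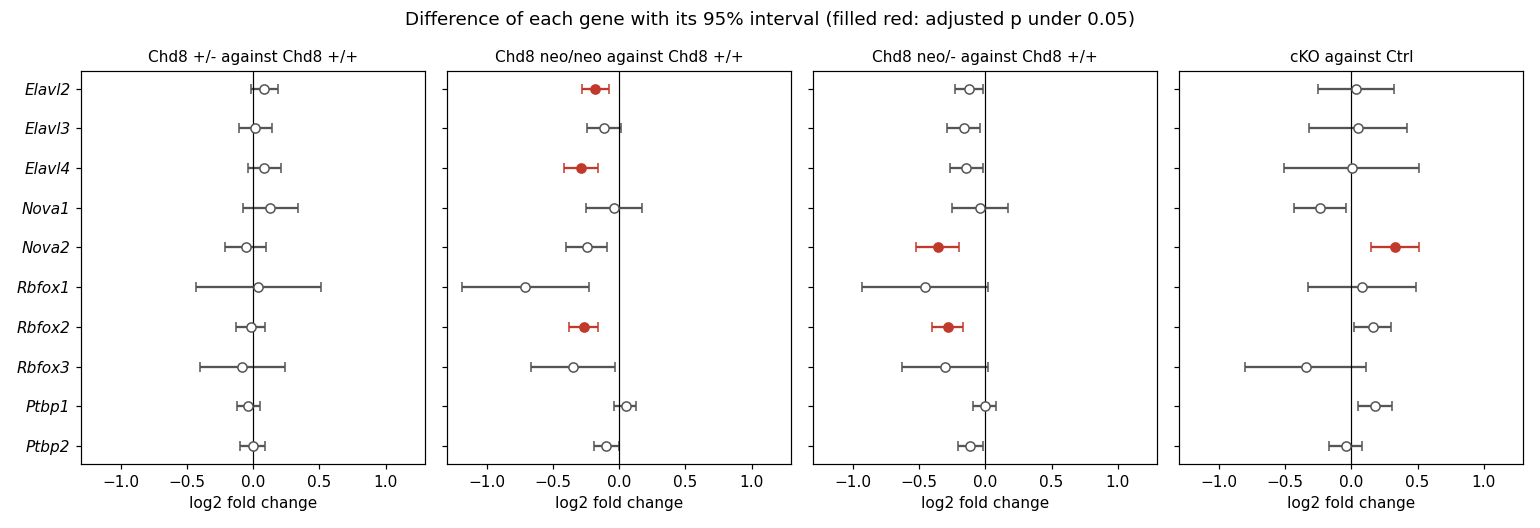
Log2 fold change of each gene with its 95% interval in 4 comparisons, where filled red points passed an adjusted p of 0.05. Nearly all points of the 2 hypomorph panels lie left of 0, with Elavl2, Elavl4 and Rbfox2 called in neo/neo, Nova2 and Rbfox2 in neo/-, and Nova2 on the right of 0 in cKO.

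The ratio of Ptbp2 to Ptbp1, taken per kilobase, describes the balance of the 2 proteins' transcripts within a library. It was 0.803, 0.854 and 0.785 in wildtype and 0.841, 0.803 and 0.86 in heterozygous cortex. The neo/neo libraries gave 0.751, 0.713 and 0.742 and the neo/- libraries 0.737, 0.742 and 0.778, all below the lowest wildtype value. With 3 libraries a group an exact permutation test cannot reach 0.05, and the ratio is given without one.

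In heterozygous cortex the log2 fold changes of the 10 genes ran from -0.08 ± 0.16 (Rbfox3) to 0.13 ± 0.11 (Nova1), and each gene's libraries overlapped those of wildtype. No gene of the 10 was called by edgeR or DESeq2, and none had an unadjusted p under 0.05. The 95% intervals were narrowest for Ptbp1 (-0.12 to 0.05) and widest for Rbfox1 (-0.43 to 0.51). Setting neo/neo directly against heterozygous cortex, Elavl4 fell by 0.38 ± 0.065 on the log2 scale (adjusted p = 0.0143), Elavl2 by 0.26 ± 0.053 (adjusted p = 0.0187) and Rbfox2 by 0.25 ± 0.057 (adjusted p = 0.0267). In this comparison 3.28% of all genes were called lower and 2% higher. Chd8 counts were 25.3% higher in neo/neo than in heterozygous libraries (adjusted p = 0.00897). These counts include exons outside the deleted or trapped part. The paper reported a larger loss of Chd8 in neo/neo than in heterozygous embryos. It measured transcripts by RT-PCR at earlier stages and protein by Western blot at E12.5. The calls of Elavl4, Elavl2 and Rbfox2 were all lost without heterozygous replicate 1, neo/neo replicate 1 or neo/neo replicate 2. Those of Elavl2 and Rbfox2 were also lost without heterozygous replicate 3. Between neo/- and neo/neo no gene of the 10 was called by edgeR or DESeq2, and 1 had an unadjusted p under 0.05, as had 1585 of the 18810 genes tested. Here 0.0106% of all genes were called higher and 0.00532% lower. The log2 fold changes of Elavl4 and Nova2 between the 2 hypomorphs were 0.15 ± 0.065 (adjusted p = 0.583) and -0.11 ± 0.081 (adjusted p = 0.714), so calls in 1 hypomorph and not the other were not shown to differ.

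The third neo/neo library stood apart from the other two for several of these genes. It was the only male of its group and had the highest Elavl3 (366 CPM), Rbfox1 (18.8), Rbfox2 (357) and Rbfox3 (31.1) of the 3. Without it, 6 of the 10 genes were called lower in neo/neo than in wildtype, Elavl2, Elavl3, Elavl4, Rbfox1, Rbfox2 and Rbfox3, while the number of all genes called rose from 1534 to 2605. The same 6 genes were called against heterozygous cortex, where calls over all genes rose from 994 to 2100. Sex and individual cannot be told apart within this group. With sex as a covariate, 2 of the 3 neo/neo calls against wildtype, Elavl4 and Rbfox2, were kept.

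Of 15 neuron markers, 3 were called lower in neo/neo and 2 in neo/-, and none higher. Over all genes 4.45% were called lower and 3.71% higher in neo/neo, and 5.99% and 5.48% in neo/-. The summed CPM of the 15 was between 4403 and 5305 in wildtype, 4548 and 5345 in heterozygous, 3490 and 4240 in neo/neo and 3954 and 4486 in neo/- cortex, so that the neo/neo libraries lay below wildtype and the neo/- libraries overlapped it. Map2 (a dendritic microtubule protein), Dcx (doublecortin, of migrating neurons) and Snap25 (a synaptic SNARE protein) were called lower in neo/neo, and Dcx and Map2 in neo/-. The median log2 fold changes of the list were -0.32 and -0.16. With 1 library left out, 2 to 8 were called lower in neo/neo and 0 to 4 in neo/-. The count in neo/- was 0 without wildtype replicate 2, neo/- replicate 1 or neo/- replicate 2. With GC content and exon length trends removed none of the 15 was called in either, with medians of -0.32 and -0.18. The summed CPM of 9 radial glia markers was between 2948 and 3406 in neo/neo against 2953 and 3195 in wildtype, which overlapped. Of the 9, Pax6 and Sox2 were called higher in neo/neo and none lower, with a list median of 0.10 on the log2 scale. None of the 9 was called without wildtype replicate 2, neo/neo replicate 1 or neo/neo replicate 2, or with only the 2 groups in the fit. Without neo/neo replicate 3, 3 were called higher and 1 lower. Slc1a3 and Fabp7 had log2 fold changes of -0.23 ± 0.092 (adjusted p = 0.145) and -0.14 ± 0.092 (adjusted p = 0.378). In these bulk libraries, fewer neurons and less RNA per neuron cannot be told apart. The 7 intermediate progenitor markers summed to between 508 and 547 CPM in neo/neo and 508 and 529 in wildtype. Of the 7, Gadd45g was called higher in neo/neo (log2 fold change 0.18 ± 0.051, adjusted p = 0.0479) and none lower. DESeq2 called 2 of the 7 higher, and no other alternative called any. The 9 ventral telencephalon markers summed to between 850.5 and 898 CPM in wildtype, 711 and 832 in neo/neo and 675 and 826 in neo/- cortex, with no overlap between either hypomorph and wildtype. Gad1, a GABA synthesis enzyme of inhibitory neurons, was the 1 called, lower in both hypomorphs. Erythroid markers summed to between 4541 and 7040 CPM in neo/- against 3259 and 3967 in wildtype, with 3 of 9 called higher. The part of cell composition in the differences of the 10 genes was not tested.

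Expressed per 1000 counts of the 15 neuron markers, Elavl4 was 40.7, 38.6 and 41.9 in wildtype, 43.6, 43.4 and 37.5 in neo/neo and 42.7, 39.5 and 42.6 in neo/- libraries. Rbfox2 was 86.5, 77.9 and 82.8 in wildtype, 88.8, 84.2 and 84.1 in neo/neo and 78.4, 79.4 and 73.8 in neo/-. On this scale the hypomorph libraries overlapped wildtype for both genes. Nova2 was between 24.4 and 32 in wildtype, 27 and 34.4 in neo/neo and 24.7 and 27.6 in neo/-, which also overlapped. Elavl2 and Elavl3 were above wildtype in all 3 neo/neo libraries, at 36.7 to 42 against 34.5 to 36.5 for Elavl2 and at 86.4 to 89.1 against 69.5 to 80.3 for Elavl3. Ptbp1 was likewise higher in neo/neo, at 79.5 to 103 against 63.5 to 75.3. Rbfox1 went the other way, at 4.53, 5.16 and 4.41 in wildtype, 3.5, 2.8 and 4.44 in neo/neo and 4.03, 3.61 and 4.11 in neo/-. All 3 neo/- libraries and 2 of the 3 neo/neo libraries thus lay below wildtype. Map2 and Dcx, called lower in both hypomorphs, are among the 15, so this scale lessens any decrease shared with them. The scale is not a level per neuron. Means of Rbfox2 and Ptbp1 on it were 82.4 and 71.3 in E12.5 wildtype but 493 and 1650 in E10.5 Ctrl. For Ptbp2, Nova1 and Elavl2 they were 112, 17.7 and 35.7 against 1100, 141 and 139. The means of Elavl3, Elavl4, Nova2 and Rbfox3 were also lower at E12.5. That of Rbfox1 was higher, at 4.7 against 2.69.

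**Figure D3:**
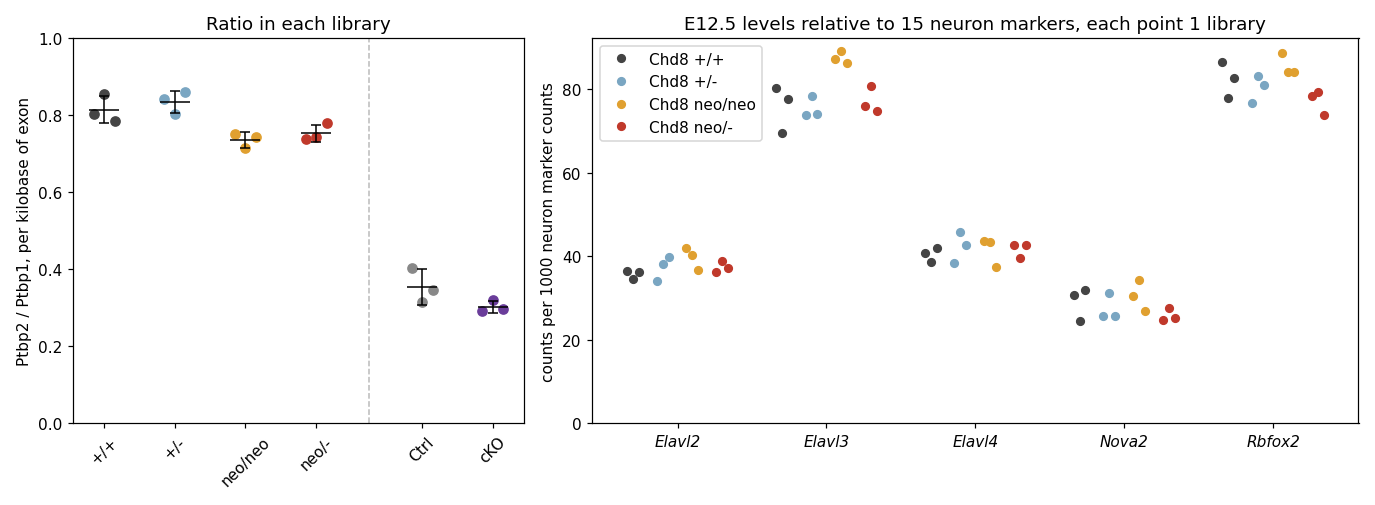
Left, the Ptbp2 to Ptbp1 ratio per kilobase of exon in each library with mean and SD, with E12.5 left and E10.5 right of the dashed line. Right, levels of 5 genes per 1000 counts of 15 neuron markers in each E12.5 library. The Elavl4, Nova2 and Rbfox2 libraries of each hypomorph overlap those of wildtype. For Rbfox2 the neo/neo libraries lie above the heterozygous and neo/- ones.

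Of 27 other RNA-binding regulators, 26 were tested at E12.5. Over all genes 4.45% were called lower and 3.71% higher in neo/neo, and 5.99% and 5.48% in neo/-. In neo/neo cortex 2 were lower and none higher than in wildtype, Celf4 and Celf2 of the CELF family of splicing and translation regulators. Celf4 was at 110, 124 and 109 CPM in wildtype and 74.6, 84.8 and 96.6 in neo/neo, and fell by 0.42 ± 0.098 on the log2 scale (adjusted p = 0.0287). Celf2 fell by 0.26 ± 0.067 (adjusted p = 0.0316). In neo/- cortex 3 were lower and 1 higher. Celf3 fell by 0.28 ± 0.069 (adjusted p = 0.0186), Celf1 by 0.15 ± 0.041 (adjusted p = 0.0306) and Srrm4 by 0.23 ± 0.059 (adjusted p = 0.0214). Srrm4, or nSR100, promotes inclusion of neuronal microexons and was at 128, 132 and 137 CPM in wildtype and 111, 112 and 115 in neo/-. Ptbp3, the paralog of Ptbp1 best known from blood cells, rose by 0.19 ± 0.049 (adjusted p = 0.0256), from 87.3, 89.3 and 88.3 CPM to 95.5, 104 and 103. Celf2 and Celf4 kept their neo/neo call in 16 and 12 of 22 alternatives and lost it without wildtype replicate 2 or 3 or neo/neo replicate 1 or 2, Celf4 also without wildtype replicate 1. The neo/- calls were kept in 14 (Celf1) to 20 (Celf3) of 22, and each was lost without neo/- replicate 2 and at least 1 other library. The median log2 fold change of the list was -0.09 in neo/neo and -0.10 in neo/-. DESeq2 called 4 and 8 of the list in these 2 comparisons, and 2288 and 2644 of all genes against 1534 and 2158 by edgeR. By edgeR or DESeq2 none was called in heterozygous cortex or in neo/- against neo/neo. There 1 and 2 had an unadjusted p under 0.05, as had 1190 and 1585 of the 18810 genes tested. Against heterozygous cortex, neo/neo had lower Celf2 (-0.25 ± 0.067, adjusted p = 0.0441) and lower Esrp1, an epithelial splicing factor. This Celf2 call was kept in 10 of 22 alternatives, with adjusted p up to 0.533, and 0.0607 with a replicate block. It was lost without wildtype replicate 2 or 3, heterozygous replicate 1 or 3, neo/neo replicate 1 or 2, or any 1 neo/- library. Esrp1 was at 0.104, 0.683 and 1.24 CPM in the heterozygous libraries and at or under 0.0826 in neo/neo, and its call was kept in 9 of 19 alternatives but not by DESeq2. Summed surface epithelium markers were 6.12, 11.7 and 12.1 CPM in the same heterozygous libraries and between 6.08 and 7.59 in all other E12.5 libraries.

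Ptbp1 is known to hold back several neuronal transcripts, including Dlg4, which encodes the postsynaptic scaffold PSD-95. In a list of 6 such transcripts, which contains Ptbp2, 3 were lower and none higher in each hypomorph, where 4.45% of all genes were called lower in neo/neo and 5.99% in neo/-. Dlg4 was at 142, 140 and 135 CPM in wildtype, 110, 117 and 131 in neo/neo and 117, 119 and 123 in neo/-. It fell by 0.22 ± 0.057 on the log2 scale in both (adjusted p = 0.0339 and 0.0249). Of the synaptic vesicle genes, Sv2a fell by 0.47 ± 0.13 in neo/neo (adjusted p = 0.0473) and Vamp2 by 0.19 ± 0.054 in neo/- (adjusted p = 0.0339). By edgeR none of the 6 was called in heterozygous cortex, in neo/neo against heterozygous cortex or in cKO against Ctrl. In these comparisons 0, 4 and 2 had an unadjusted p under 0.05, and DESeq2 called 0, 2 and 1. Over all genes, 1190 and 4369 of 18810 and 5049 of 18435 had an unadjusted p under 0.05. DESeq2 called 20, 1827 and 2712 of all genes. The neo/neo calls of Dlg4 and Sv2a were kept in 12 and 5 of 22 alternatives, and both were lost without any 1 wildtype library or without neo/neo replicate 1 or 2. The neo/- calls of Dlg4 and Vamp2 were each kept in 17 of 22 and lost without wildtype replicate 1, neo/- replicate 1 or neo/- replicate 2, among others. The median log2 fold changes of the list were -0.24 in neo/neo and -0.22 in neo/-. With GC content and exon length trends removed, 0 of the 6 were called in neo/neo and 2 in neo/-, with list medians of -0.21 and -0.20. These transcripts are also abundant in neurons.

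At E10.5 the order of levels differed. Ptbp1 was the highest in Ctrl at 112 ± 8.35 CPM per kilobase, followed by Ptbp2 at 39.6 ± 2.09 and Rbfox2 at 21.5 ± 2.13, each separate from the next in every library. Nova1 (6.7 ± 0.772), Elavl3 (6.25 ± 1.37), Elavl2 (5.7 ± 1.01) and Elavl4 (4.44 ± 1.28) overlapped their neighbours in this order. Nova2 was at 2.25 ± 0.0677, Rbfox3 at 0.441 ± 0.106 and Rbfox1 at 0.211 ± 0.0336. Set beside E12.5 wildtype cortex, Rbfox1 was 25.9 times, Rbfox3 11.6 times, Elavl3 11.5 times, Elavl4 8.11 times and Nova2 7.37 times as high at E12.5. Elavl2 was 3.61 times, Rbfox2 2.49 times, Nova1 1.81 times and Ptbp2 1.48 times as high. Ptbp1 ran the other way and was 1.56 times as high at E10.5. The Ptbp2 to Ptbp1 ratio was 0.404, 0.314 and 0.345 in Ctrl against 0.785 to 0.854 in E12.5 wildtype. The 2 stages differ in dissection, pooling and sequencing run and were scaled separately, so these ratios were not tested.

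**Figure D4:**
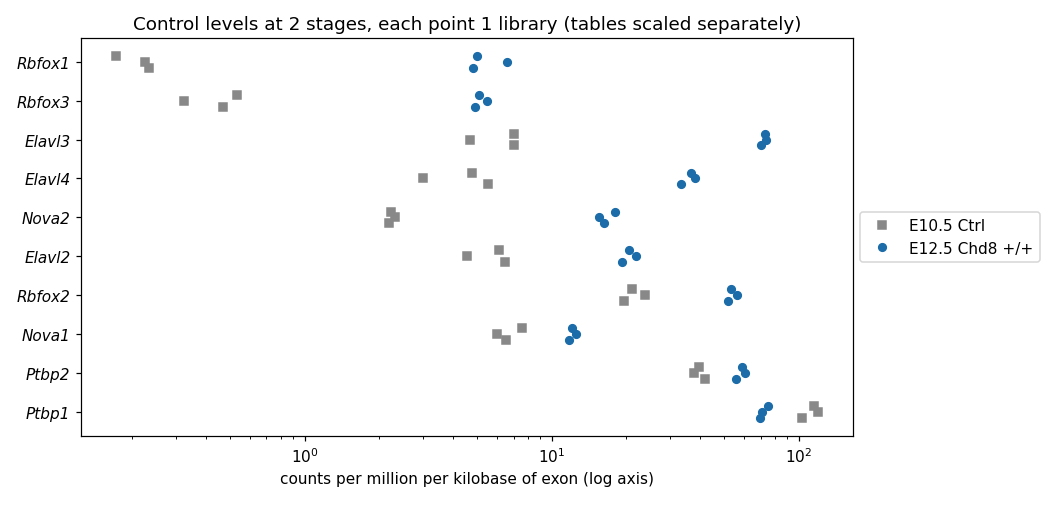
Level of each gene per kilobase of exon on a log axis in the 3 E10.5 Ctrl libraries (squares) and the 3 E12.5 wildtype libraries (circles), ordered by the ratio of the stage means. Rbfox1 and Rbfox3 show the widest gaps, and Ptbp1 is the only gene whose E10.5 libraries lie above those of E12.5.

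In cKO against Ctrl, 1 of the 10 genes was higher and none lower, where 5.75% of all genes were called higher and 5.7% lower. Nova2 was at 18.3, 19.4 and 18.7 CPM in Ctrl and 20.8, 24.6 and 25.5 CPM in cKO libraries, without overlap. It rose by 0.33 ± 0.09 on the log2 scale, or 25.7% (adjusted p = 0.038). The call was lost without Ctrl replicates 1 or 3 or cKO replicates 2 or 3, with the first sequencing run alone, and with GC and length trends removed, with adjusted p up to 0.167. Without Ctrl replicate 2, Rbfox2 and Ptbp1 were called higher as well as Nova2, while the number of all genes called rose from 2110 to 2483. Ptbp1 was at 489, 565 and 545 CPM in Ctrl and between 599 and 605 in cKO, with no overlap and a log2 fold change of 0.18 ± 0.067 (adjusted p = 0.113). Rbfox2 was at 145, 175 and 155 CPM in Ctrl and 176, 183 and 172 in cKO (log2 fold change 0.16 ± 0.072, adjusted p = 0.177). Ptbp2 differed by -0.04 ± 0.063 (adjusted p = 0.696), and the Ptbp2 to Ptbp1 ratio of cKO libraries was 0.29, 0.319 and 0.297, overlapping Ctrl.

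The Elavl genes did not differ detectably in cKO, but the spread between libraries was wide. Elavl2, Elavl3 and Elavl4 had log2 fold changes of 0.04 ± 0.15, 0.05 ± 0.19 and 0.00 ± 0.26 (adjusted p = 0.901, 0.897 and 0.996). Elavl4 was at 29.7, 16.3 and 25.7 CPM in Ctrl and 19.1, 28.6 and 24.2 in cKO. Nova1 was at 45.8, 42.2 and 52.8 CPM in Ctrl and 34.8, 42.4 and 42.2 in cKO (log2 fold change -0.24 ± 0.099, adjusted p = 0.153). Rbfox1 stayed between 0.716 and 1.1 CPM in all 6 libraries, and Rbfox3 between 1.38 and 3.1. Ctrl replicate 2 had the lowest summed neuron markers of the 6 libraries, 242 CPM against 426 and 374 in the other Ctrl pools and 277.3 to 372 in cKO. Neurod6, a marker of cortical projection neurons, was at 3 counts or fewer in every E10.5 library. The summed mesenchyme markers were between 648 and 737 CPM in Ctrl and 808 and 999 in cKO, and their part in the differences was not tested. Among the other RNA-binding regulators 2 of 27 were called higher and none lower. Over all genes 5.75% were called higher and 5.7% lower. Celf5, a brain-enriched CELF protein, was at 8.35, 6.05 and 7.6 CPM in Ctrl and 14, 17.4 and 17.4 in cKO, and rose by 1.15 ± 0.13 on the log2 scale (adjusted p = 0.000548), a call kept in all 14 alternatives. Ptbp3 rose by 0.33 ± 0.082 (adjusted p = 0.0274), from 92.9, 105 and 102 CPM to 110, 130 and 137, and lost its call without Ctrl replicate 1 or 3 or cKO replicate 2 or 3.

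Over the 12 E12.5 libraries, the members varied together to different degrees. The closest pair was Elavl2 and Elavl4 (Pearson r = 0.90 of log2 CPM, 12 libraries), followed by Rbfox1 with Rbfox3 and with Rbfox2 (both 0.89) and Elavl3 with Rbfox2 (0.89). Ptbp1 ran against most others, with r = -0.69 for Rbfox1 and -0.61 for Elavl4 and Rbfox3. Among 18153 genes searched, those with the pattern most like Rbfox2 were Dscam (r = 0.987), Orai2 (0.983) and Plcb1 (0.981). For Elavl2 they were Brox (0.976), Trp53inp1 (0.973) and Klhl7 (0.969). For Elavl4 they were Tcaf1 (0.965), Lig4 and Tmem106b (both 0.959), and for Nova2 Rnf165 (0.957), Srrm4 (0.953) and Synrg (0.952). These correlations are descriptions over libraries that share genotype, sequencing lanes and the differences in neuron marker level given above.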

How the data were processed

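Poly(A)-selected mRNA was sequenced with 75 bp paired reads on an Illumina HiSeq, each library in 2 lanes. The authors trimmed reads with Trim Galore 0.4.1, aligned them to GRCm38.p4 with TopHat2 2.1.0 and counted reads per gene with featureCounts 1.5.0. The deposited values are raw counts per gene and run. The E12.5 file header names Ensembl 82 and no strand or multi-mapping option, although libraries were made with dUTP. The E10.5 options are not given in the sources used here.

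Both runs of a library were summed. Genes low in counts were removed (filterByExpr), TMM factors computed and genotypes tested with edgeR 4.0.16 (quasi-likelihood, robust, R 4.3.3), with Benjamini-Hochberg adjustment over all genes and a threshold of 0.05. The 12 E12.5 libraries entered 1 fit with a term for genotype alone, and the 6 E10.5 libraries separately. Standard errors are the absolute log2 fold change divided by the square root of F, and intervals are ± 1.96 standard errors. For correlations 0.5 CPM was added before the logarithm. On simulated counts with 200 genes changed by 1 log2 unit, 90.5% were recovered for neo/neo against wildtype (18810 genes, 6 false calls) and 82% for cKO against Ctrl (18435 genes, 14 false calls). In the fits of all 12 and all 6 libraries, the called changes of the Elavl, Nova and Rbfox genes were smaller than 1 log2 unit. Those of Celf5 in cKO against Ctrl and of Esrp1 in neo/neo against heterozygous cortex were larger.

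The 10 genes and all gene lists were chosen with earlier results of these data known. Named were the 10 genes, Chd8, up to 6 called genes of each RNA-binding list per comparison by adjusted p, and the 3 genes most correlated with each called member. One called member of a list is counted in the list's totals but not reported here by name. Alternatives were DESeq2 1.42.0, other scalings, no filter, a replicate block, single runs, sex, fits of 2 groups and leaving out each library. Removal of GC content and exon length trends was added after seeing the data. Deviations of libraries with the same number correlated at 0.11, 0.2 and 0.2 between neo/neo and heterozygous embryos. In the other comparisons the correlations ran from -0.27 to 0.11. Replicate numbers are not stated to mark a litter, and the main fit did not pair them. Pairing by number entered only through the replicate block. Replicates came from different litters. E10.5 replicates are pools, and p-values measure the spread between pools. No 2 libraries of the same group agreed within sampling noise.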

Additional observations from a re-analysis of the deposited data

How the results depend on the processing

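Called genes numbered 3 in neo/neo against wildtype, 2 in neo/- against wildtype, 3 in neo/neo against heterozygous and 1 in cKO against Ctrl. With DESeq2 the first count was 5, adding Nova2 and Rbfox1, while calls over all genes went from 1534 to 2288. With only the 2 groups in the fit the counts were 1, 5 and 1 for the E12.5 comparisons, and the extra genes in neo/- were Elavl3, Rbfox1 and Rbfox3. Calls over all genes then went from 1534 to 430, from 2158 to 2687 and from 994 to 42. With GC content and exon length trends removed, a setting chosen after seeing the data, they were 0 in neo/neo against wildtype, 1 (Elavl4) against heterozygous and 0 in cKO, while 2 remained in neo/-, and calls over all genes went to 931 in neo/neo and 1295 in neo/- against wildtype. The first run alone gave 0 in cKO, where calls over all genes went from 2110 to 1859. Leaving out 1 library gave 0 to 6 in neo/neo against wildtype, 1 to 3 in neo/-, 0 to 6 in neo/neo against heterozygous and 0 to 3 in cKO. Calls over all genes then ran from 435 to 2605, 1015 to 2574, 23 to 2100 and 538 to 2483 in these comparisons. The replicate block gave 2 in neo/neo against wildtype, without Elavl2, and left the other counts of the 10 genes at their values. The causes of these shifts were not tested. Counts of 0 in heterozygous and in neo/- against neo/neo stayed at 0 under DESeq2, the block and the other settings run.

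Several log2 fold changes near 0, none of them called, changed sign. With trends removed, Nova1 and Ptbp2 gave 0.042 and 0.0049 in neo/neo, Nova1 and Ptbp1 0.017 and 0.0052 in neo/-, and Elavl3 -0.018 in cKO. In neo/-, Nova1 gave 0.0059 and Ptbp1 0.0094 with the second run alone, and Ptbp1 0.016 with sex as a covariate. In cKO, Elavl4 gave -0.0048 with upper quartile scaling, and Elavl4 and Rbfox1 gave -0.037 and -0.072 with the first run alone. Without single libraries, Nova1 ran from -0.021 to 0.22 and Rbfox1 from -0.087 to 0.21 in heterozygous cortex, Nova1 from -0.13 to 0.0067 in neo/neo, and Ptbp1 from -0.032 to 0.032 in neo/-. In cKO, Elavl2 ran from -0.10 to 0.14, Elavl3 from -0.12 to 0.16, Elavl4 from -0.21 to 0.19 and Rbfox1 from -0.060 to 0.17. Rbfox1 and Rbfox3 were low in counts at E10.5, where single libraries held 40 to 70 and 82 to 173 counts.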
